A study of Homo sapiens with 10 samples.

Results

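The ESRRG locus is described here through the peaks that 8 ChIP-seq lists placed on chromosome 1 between 216.55 and 217.36 Mb of the hg19 build. ESRRG itself occupies 216.677 to 217.311 Mb of that build, to the nearest kb, and is read on the minus strand, so that its start lies at 217.311 Mb and its end at 216.677 Mb. The window held 84 of the 26482 peaks in the 8 lists. The locus was selected on the presence, spacing and scores of these peaks in the same 8 lists, so those values are given as a description and are not tested.

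The cells were SK-N-SH, a long-established line from a human neuroblastoma. All of them were kept for 24 hours in medium with charcoal-stripped serum, which is depleted of retinoids and steroids, before treatment with retinoic acid (RA) at 1 µM or with vehicle (untreated, UT). Chromatin was precipitated with an antibody against the coactivator MAML3 or against the retinoic acid receptor RARα. Each of the 4 groups, MAML3 RA, MAML3 UT, RARα RA and RARα UT, has 2 replicate samples in the labels with 1 peak list each, and the sources used here do not state how long the treatment lasted. No label says whether replicates came from separate cultures. By the tags in their names, the MAML3 UT lists may come from a single library, and RARα UT replicate 2 is marked as merged. The same sources give no read depths, so the absence of a peak does not by itself show a lack of binding.

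ESRRG encodes estrogen-related receptor gamma, an orphan nuclear receptor that is active without a known natural hormone. It binds a short extended form of the common nuclear receptor sequence AGGTCA and, with coactivators such as PGC-1α, is known for turning on genes of mitochondrial energy metabolism in heart, kidney, muscle and neurons. RARα binds pairs of related sequences together with RXR and recruits coactivators when it holds retinoic acid. MAML3 belongs to the mastermind-like family, best known as coactivators of the Notch pathway with the DNA-binding protein RBPJ.

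The gene has several starts. RefSeq lists 8 promoter windows for ESRRG on the GRCh38.p14 build, which is not the build of the peaks, so that peaks were set against the outermost start alone, taken as the upper end of the gene in hg19. The 250 bases before the outermost start are shown because, as described below, no list had a peak close to that start. They are on the minus strand of GRCh38.p14, chr1:217137703-217137952, with CG pairs in capitals.

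ESRRG outermost promoter: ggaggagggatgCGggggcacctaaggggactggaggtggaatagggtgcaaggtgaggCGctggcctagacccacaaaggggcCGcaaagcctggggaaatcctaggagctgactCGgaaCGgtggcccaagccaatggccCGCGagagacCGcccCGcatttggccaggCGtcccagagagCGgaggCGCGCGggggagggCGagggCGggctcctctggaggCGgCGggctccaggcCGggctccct

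This stretch had 19 CG pairs and 70.4% G or C. The median over all 35116 promoter windows of the annotation was 11 CG pairs in the same 250 bases, and 34.6% of the windows had 19 or more. The letters AGGTCA, searched on both strands, were found in 2 of the 8 ESRRG windows, which run 300 bases each, and in 13.8% of all windows. The outermost window was not among the 2. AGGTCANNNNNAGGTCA, TCAAGGTCA (the estrogen-related receptor element, which contains AGGTCA) and GTGGGAA (a core of RBPJ sites) were in 0 of the 8, against 0.0057%, 0.353% and 6.25% of all windows. With only 8 windows, shares this low could not have been told from none.

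MAML3 was found at the locus in every list of that antibody. The MAML3 RA lists held 21 and 17 peaks there (mean 19 ± 2.83, SD, n = 2), and the MAML3 UT lists held 13 and 17 (mean 15 ± 2.83, SD, n = 2). RARα had fewer peaks, with 3 and 7 in the RA lists (mean 5 ± 2.83, SD, n = 2) and 5 and 1 in the UT lists (mean 3 ± 2.83, SD, n = 2). The treatments overlapped for both antibodies: 17 peaks occurred in a MAML3 list of each treatment, and the RARα UT lists held the lowest count and one between the RA counts. With 2 lists against 2 an exact two-sided permutation test cannot give a p below 0.333, and none was run. If the MAML3 UT lists come from a single library, their n = 2 and SD count it more than once. RARα UT replicate 2 is marked as merged, and what was merged is not clear. The n = 2 and SD of RARα UT may therefore not stand for separate samples.

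The lists differ in length, which touches every count above. The MAML3 RA lists held 7532 and 6230 peaks in all and the MAML3 UT lists 2222 and 6759, while the RARα RA lists held 1103 and 1064 and the RARα UT lists 1321 and 251. The locus took 0.279 and 0.273% of the MAML3 RA lists, against 0.585 and 0.252% of the MAML3 UT lists. For RARα it took 0.272 and 0.658% of the RA lists, against 0.379 and 0.398% of the UT lists. By share, the highest MAML3 list was the short UT replicate 1 and the highest RARα list was RA replicate 2. The lowest were MAML3 UT replicate 2 and RARα RA replicate 1, so the shares of the treatments overlapped for both antibodies.

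Peak density at the locus stood above that of chromosome 1 as a whole in all 8 lists. In the MAML3 RA lists there were 25.9 and 21.0 peaks per Mb at the locus, against 2.66 and 2.21 over the listed range of chromosome 1. In the MAML3 UT lists there were 16.0 and 21.0 per Mb at the locus, against 0.827 and 2.44 over the chromosome. The ratio was 9.75 and 9.50 in the MAML3 RA lists and 19.4 and 8.62 in the MAML3 UT lists. For RARα it was 8.43 and 20.5 in the RA lists and 11.1 and 9.93 in the UT lists. The last of these rests on 1 peak. Of 3650 windows of 810 kb laid side by side over all chromosomes, 6 held at least the 24 MAML3 sites found here (a site being a set of overlapping peaks, described below), this one included. The mean was 2.81 sites per window and the fullest held 33. On chromosome 1 it was the only window with as many. The adjoining windows held 5 MAML3 sites past the end of ESRRG and 1 before its start. For RARα, 4 windows held at least the 10 sites of this locus, against a mean of 0.581. The windows were laid from the edges of the locus, which was itself chosen on these peaks, while a boundary could divide clusters elsewhere. These window counts are therefore a description and not a test of density.

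**Figure D1:**
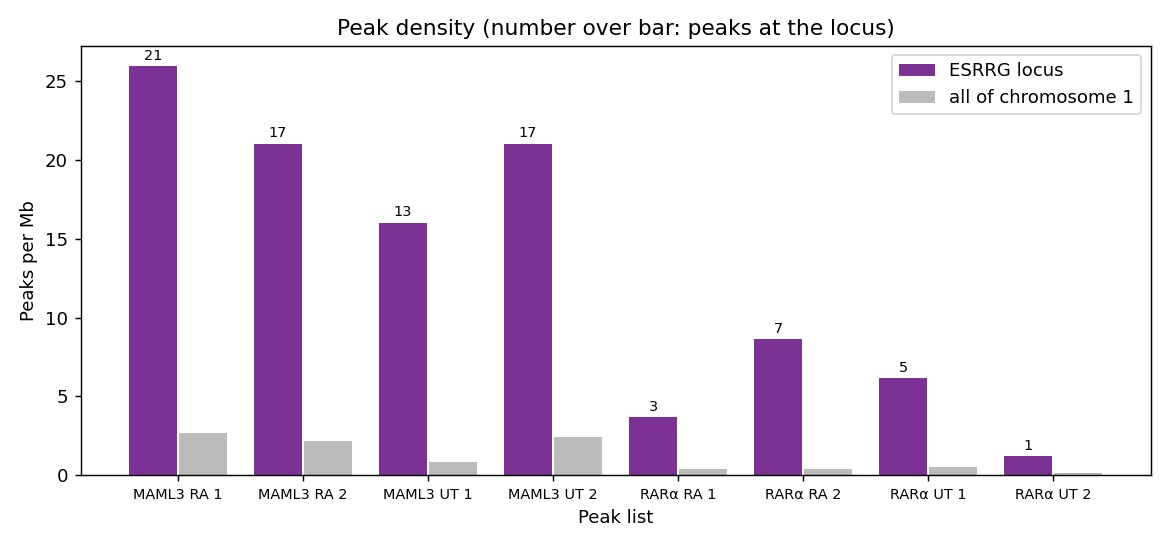
Peaks per Mb in each of the 8 lists at the ESRRG locus (purple) and over the listed range of chromosome 1 (grey), with the number of peaks at the locus over each purple bar. In every list the purple bar is the taller, at 8.43 to 20.5 times the grey one.

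To compare lists, peaks of the 4 lists of an antibody that shared 1 bp or more were joined into sites. The locus had 24 MAML3 sites, of which 10 were in all 4 lists, 5 in 3 lists, 3 in 2 lists and 6 in 1 list. Over all 10251 MAML3 sites, 16.8% were in all 4 lists. The RARα peaks formed 10 sites, of which 1 was in all 4 lists, 1 in 3, 1 in 2 and 7 in a single list. Over all 2120 RARα sites, 6.75% were in all 4 lists. RARα UT replicate 2 had 1 peak at the locus, so no more than 1 site here could be in all 4.

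The sites were spread unevenly along the gene. A stretch of 158 kb at the end of ESRRG, from 216621500 to 216779999, held 17 of the 24 MAML3 sites and 8 of the 10 RARα sites. It covers the last part of the gene and the sequence beyond its end. Its edges were drawn from the peaks, at the first MAML3 site of the window and at a site in all 4 MAML3 lists. There were 17 and 12 MAML3 peaks in it in the RA lists, against 10 and 13 in the UT lists. For RARα it held 2 and 7 peaks in the RA lists, against 4 and 1 in the UT lists. The next 509 kb, most of the gene body, held 4 MAML3 sites and no RARα site. The edges of this second stretch were set at neighbouring sites in all 4 MAML3 lists, so none of those 4 could be in all 4 lists. Their highest percentile in any list was 53.0. MAML3 UT replicate 1 had no peak there, UT replicate 2 had 1, and the RA lists had 2 and 3. The remaining 70.8 kb, around the start, held 3 MAML3 and 2 RARα sites.

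**Figure D2:**
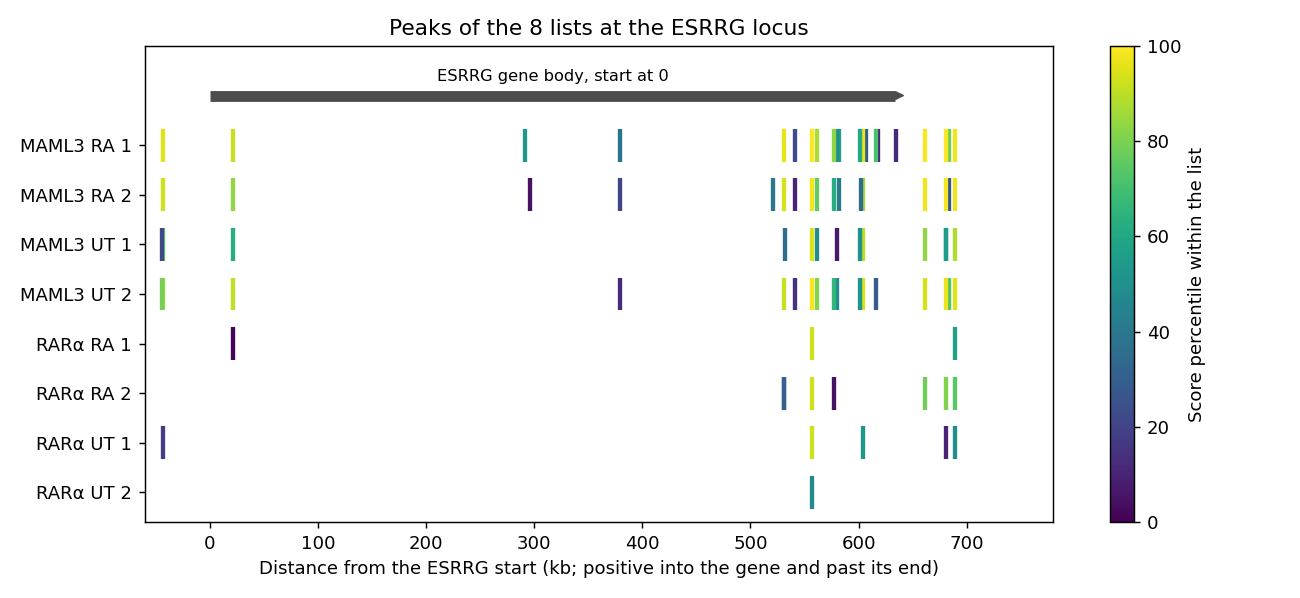
Position of every peak at the ESRRG locus in the 8 lists, as distance in kb from the start of the gene, with RA lists above UT lists for each antibody and colour for the score percentile within the list. Peaks crowd at the end of the gene, with 17, 12, 10 and 13 of them in the MAML3 lists, and most of the gene body is nearly empty.

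Spacing gave the same picture in kb. Neighbouring MAML3 sites at the locus were a median of 9.57 kb apart between midpoints, with the closest pair 0.948 kb and the farthest pair 269.6 kb apart. Over all MAML3 sites the median was 76.1 kb. Between the 10 sites in all 4 lists the median was 25.6 kb, against 411 kb over all such sites. For RARα the median was 25.4 kb at the locus, against 524 kb over all RARα sites. A closest RARα pair of 0.221 kb came from RA replicate 2 alone, which had 2 peaks inside a single MAML3 site.

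Scores were read only within a list. The percentile of a peak is the share of its list with a score at or below its own, where tied peaks share their mean rank. The median percentile of the peaks at the locus was 77.9 and 76.1 in the MAML3 RA lists, and 56.8 and 81.6 in the MAML3 UT lists. In the RARα RA lists it was 57.1 and 74.2, and in the RARα UT lists 48.9 and 48.2. The RARα UT replicate 2 value belongs to a single peak. Ranks from lists of unequal length do not show a change in binding.

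The site on chromosome 1 at 216753800 to 216754449 was the only one at the locus held by all 8 lists. No more than 1 site could be, because RARα UT replicate 2 had 1 peak at the locus. The site lies inside ESRRG, 77.1 kb from the end of the gene. Its MAML3 percentile was 99.4 and 98.4 in the RA lists, and 94.6 and 98.7 in the UT lists. Its RARα percentile was 92.7 and 92.8 in the RA lists, and 92.5 and 48.2 in the UT lists. The value of RARα UT replicate 2, the list of 251 peaks, stood apart from the other 3. Within the locus this was the highest scored RARα peak in each RARα list, and in RARα UT replicate 2 the only one. It was the highest scored MAML3 peak in RA replicate 2, UT replicate 1 and UT replicate 2. In MAML3 RA replicate 1 it came after the site at 216629996 to 216630749. The midpoints of the MAML3 and RARα sites were 45 bp apart.

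Beyond the end of the gene lay 3 further MAML3 sites that every MAML3 list held. At 216621500 to 216622049, 55.2 kb past the end, the percentile was 97.8 and 97.8 in the RA lists, and 88.0 and 95.5 in the UT lists. RARα was there in both RA lists (percentiles 57.1 and 74.2) and in UT replicate 1 (48.9), but not in UT replicate 2. At 216629996 to 216630749, 46.6 kb past the end, the MAML3 percentile was 99.5 and 98.2 in the RA lists, and 56.8 and 97.2 in the UT lists. The low value belongs to UT replicate 1, which lists 2 adjacent peaks there (216630050 to 216630200 and 216630224 to 216630502) where the other lists have 1. RARα had a peak in RA replicate 2 (percentile 80.5) and in UT replicate 1 (9.77). At 216649246 to 216649899, 27.4 kb past the end, MAML3 had 99.2 and 97.8 in the RA lists, and 83.4 and 93.7 in the UT lists, and RARα had a peak in RA replicate 2 alone (78.2). At each of these 3 sites both RA percentiles were above both UT percentiles, in lists of unequal length.

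Within the last part of the gene body 4 more sites were in all 4 MAML3 lists. The highest by mean percentile, at 216707050 to 216707599, had 96.5 and 86.6 in the RA lists, and 89.6 and 93.8 in the UT lists, with RARα in UT replicate 1 alone (53.4). Its close neighbour at 216709050 to 216709545, 1.97 kb away, was the lowest of the sites in all 4 lists, with 60.5 and 35.5 in the RA lists, and 50.6 and 52.4 in the UT lists. It had no RARα peak. At 216749550 to 216750049 the percentile was 87.3 and 76.1 in the RA lists, and 48.6 and 81.6 in the UT lists, again with no RARα peak. At 216779400 to 216779999 it was 96.2 and 93.7 in the RA lists, and 35.3 and 91.6 in the UT lists, and RARα RA replicate 2 had 2 small peaks inside it (36.8 and 30.8). RA and UT percentiles overlapped at the first 3 of these sites, while at the last both RA values were above both UT values.

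**Figure D3:**
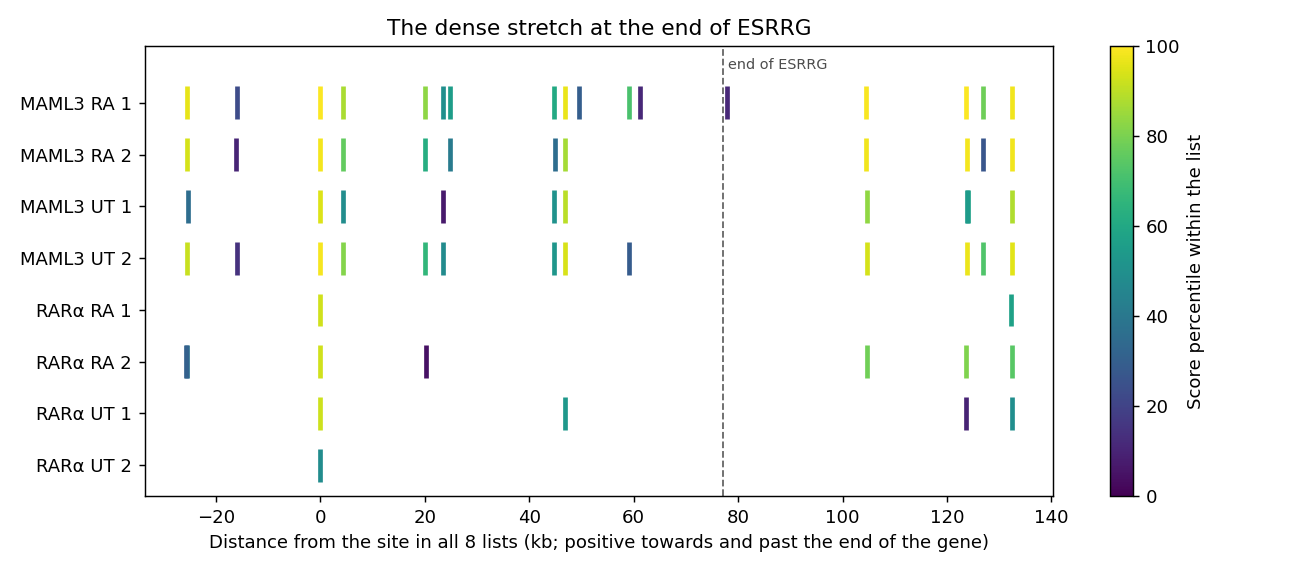
The same peaks in the dense 158 kb at the end of ESRRG, as distance in kb from the centre of the site found in all 8 lists, with RA lists above UT lists and colour for the score percentile within the list. The dashed line marks the end of the gene, 77.1 kb from that site. RARα peaks stand where MAML3 peaks stand.

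No list had a peak at the outermost start of ESRRG. The nearest MAML3 site lay 21.5 kb inside the gene, at 217289250 to 217289749, and was in all 4 lists, with percentiles of 91.7 and 83.4 in the RA lists, and 62.8 and 90.8 in the UT lists. RARα had a peak on it in RA replicate 1 alone, at the percentile of 1.5, close to the lowest score of that list. On the other side, 42.9 kb before the start, the site at 217353750 to 217354149 had 95.3 and 92.3 in the MAML3 RA lists, and 75.7 and 85.7 in the MAML3 UT lists. Both RA percentiles there were again above both UT percentiles. RARα had a peak on it in UT replicate 1 alone (18.3). Whether peaks lie at the inner starts of the gene was not analysed here, because those starts were at hand on another build.

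Among the 10 sites in all 4 MAML3 lists, both RA percentiles were above both UT percentiles at 5, the reverse held at 0, and the treatments overlapped at 5. Over the 1724 MAML3 sites of the whole series in all 4 lists the shares were 25.8% with RA above and 6.09% with UT above. The short list of UT replicate 1 enters every such count, and its percentiles are on a scale of 2222 peaks. At each of the 5 locus sites with RA above, UT replicate 2 had the higher UT percentile. All these lists differ in length, so the counts do not show a change in binding.

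The order of the 10 sites in all 4 MAML3 lists was compared within each list, which needs no scale shared between lists. The order in RA replicate 1 and RA replicate 2 gave a Spearman rho of 0.952. The RA lists against UT replicate 2 gave 0.939 and 0.879, and against UT replicate 1 they gave 0.539 and 0.479. The UT lists against each other gave 0.636, less than the RA lists against UT replicate 2. These values cover 10 sites of 1 locus in 1 cell line, and describe the lists only. UT replicate 1 put the site at 216629996 in place 7 and the site at 216779400 in place 10, where the other 3 lists had places 1 to 2 and 5 to 6.

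**Figure D4:**
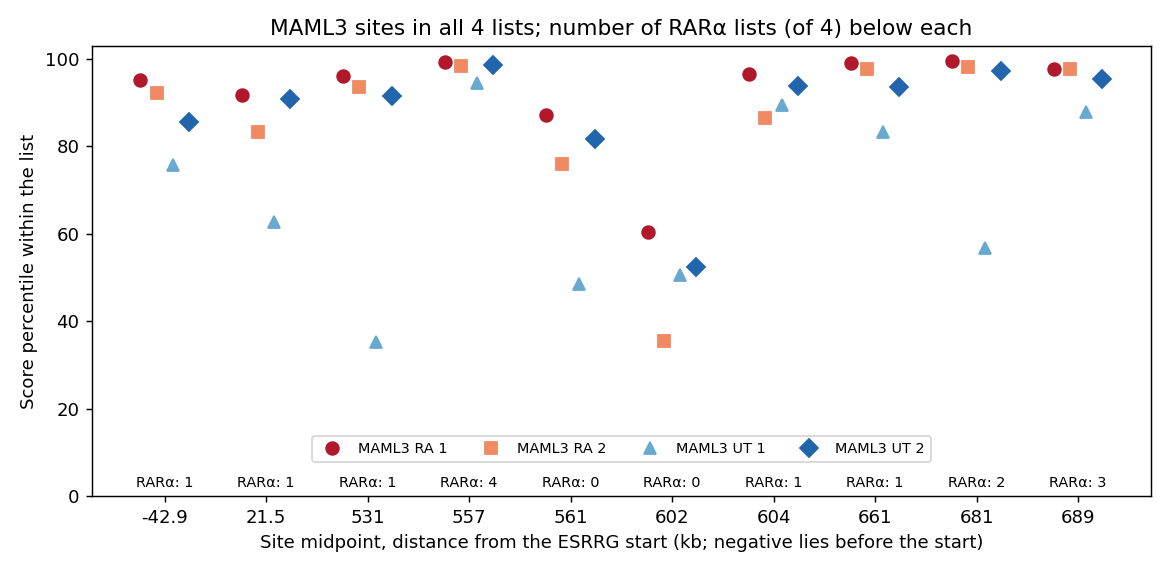
Score percentile within the list for the 10 MAML3 sites held by all 4 MAML3 lists, ordered by distance in kb from the start of ESRRG, with RA lists (red, orange) left of UT lists (light and dark blue), and the number of RARα lists with a peak written below each site. UT replicate 1 is the lowest at 8 of the 10 sites, and the 2 sites with no RARα list are among the lower ones.

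Presence differed by treatment at 2 of the 24 MAML3 sites. A site counted as gained when both RA lists and neither UT list held it, and as lost in the opposite case. The gained site was at 216729050 to 216729399 inside the gene, with percentiles of 55.4 and 41.1 in the RA lists, and it had no RARα peak. Of all MAML3 sites 9.37% were gained, so that 1 of 24 (4.17%) is no more than that background. Its nearest neighbour was 1050 bp away, in RA replicate 1 and both UT lists. The lost site was at 217354696 to 217355099, 43.9 kb before the start, with percentiles of 22.1 and 79.1 in the UT lists. Of all MAML3 sites 0.683% were lost. The lost site stood 546 bp from the site at 217353750 to 217354149, which all 4 lists held, and a gap of up to 1 kb joined the pair into 1 site and left no lost site. The gained and lost counts each rest on 1 site. Without UT replicate 2 or without RA replicate 2 there were 5 gained sites, and without RA replicate 1 there were 3 gained and 2 lost. In lists of equal length none was gained and 1 was lost. That cut kept all of UT replicate 1 but dropped RA peaks below percentiles of 70.5 and 64.3. Both RA peaks of the gained site lay below the cut, so these counts do not compare gain with loss.

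None of the 10 RARα sites was gained or lost, against 5.42% gained and 0.472% lost over all RARα sites. With a count of 0 among 10 sites a share near either background could not have been told from none. A lost site also needs a peak in both UT lists. UT replicate 2 had 1 peak at the locus, on the site in all 4 RARα lists. The count of 0 lost was therefore fixed by that short list and says nothing about the treatment. Without RA replicate 1 there were 4 gained RARα sites, without RA replicate 2 or UT replicate 1 there was 1, and without UT replicate 2 there were 2 lost. The 7 RARα sites of a single list comprised 4 in RA replicate 2, 1 in RA replicate 1 and 2 in UT replicate 1.

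A further 5 MAML3 sites were in 3 lists. UT replicate 1, the shortest MAML3 list, was the missing list at 4 of them. These lay at 216627050 to 216627549, 216733750 to 216734394, 216769900 to 216770349 and 216931550 to 216931849. Their percentiles in the RA lists were 77.9 and 26.9, 83.0 and 62.3, 22.7 and 10.3, and 38.5 and 20.0, in that order of sites. In UT replicate 2 they were 72.6, 66.0, 14.1 and 12.1. The remaining site, at 216730450 to 216730799, lacked RA replicate 2 and had 49.4 in RA replicate 1 and 6.75 and 47.9 in the UT lists. A site in RA replicate 1 and UT replicate 2 lay at 216694900 to 216695299 (71.4 and 28.7). The 6 sites of a single list all came from RA lists, 4 from RA replicate 1 and 2 from RA replicate 2, with percentiles between 4.51 and 53.0. One of the 6, at 216676100 to 216676399, was the closest to the end of the gene (0.75 kb), with a percentile of 11.2. Over the whole series 3812 of 10251 MAML3 sites were in a single list. Their split between RA and UT lists was not counted, so no difference between treatments can be read from the 6.

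RARα and MAML3 met at the same places. All 10 RARα sites of the locus overlapped a MAML3 site, against 84.4% of the RARα sites of the whole series, so the locus count is near the background. List by list, every RARα peak of the locus lay on a peak of both MAML3 RA lists and of MAML3 UT replicate 2, against 66.1 to 83.8% of the peaks in the whole RARα lists. MAML3 UT replicate 1 had a peak under 3 of 3 and 5 of 7 RARα RA peaks, and under 4 of 5 and 1 of 1 RARα UT peaks, against 51.4 to 61.2% of the whole RARα lists. Without RARα RA replicate 2, the list with the most RARα peaks here, 6 RARα sites remained and all 6 overlapped MAML3. The midpoints of overlapping sites were 25 to 178 bp apart.

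Seen from MAML3, 9 of the 24 sites carried RARα, against 17.0% of all MAML3 sites. Of the 10 sites in all 4 MAML3 lists 8 carried RARα, against 55.7% of such sites over the genome. Of the 14 sites in fewer lists 1 did, against 9.15%. That site was at 216733750 to 216734394, where RARα RA replicate 2 had a peak at the percentile of 4.32. Among the sites in all 4 lists, the 8 with RARα had mean MAML3 percentiles of 79.2 to 97.8, and the 2 without had 49.7 and 73.4. The site at 216733750, with RARα, had a mean of 70.4 over the 3 MAML3 lists that held it, below that 73.4. MAML3 percentiles with and without RARα were not compared over the whole series. RARα presence itself was uneven between replicates: only the site at 216753800 was in both RARα UT lists, and only that site and the one at 216621500 were in both RARα RA lists. RARα UT replicate 2 had 1 peak at the locus, so no more than 1 site could be in both UT lists.

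The edges of the window fell in empty sequence. The peaks inside it ran from 216621495 to 217355099. Outside it, the nearest MAML3 peaks were 139 and 186 kb away in the RA lists, and 186 and 139 kb away in the UT lists, past the end of ESRRG, with percentiles of 30.8 and 90.6, and 70.7 and 38.3. Before the start of ESRRG they were 681 and 921 kb away in the RA lists, and 2200.3 and 922 kb away in the UT lists. The nearest RARα peak outside was 267 kb away, in UT replicate 1.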

How the data were processed

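The data are 8 ChIP-seq peak lists of SK-N-SH cells, 1 per sample in the labels. The 2 input samples of the 10 in the labels were not analysed here. Per the submitters' processing notes, BWA 0.5.9, MACS and bedtools were used with the hg19 build; their roles, the thresholds and any control are not stated there. Libraries were amplified for 15 cycles, per the labels' protocols. Each list gives positions, a numbered peak name and a score that the authors deposited, from about 70 to a ceiling near 3100. The score served only to rank peaks within a list. Peak numbers run without a gap at this locus in all 8 lists. The tags in the list names leave it unclear whether the MAML3 UT lists are 2 libraries, and mark RARα UT replicate 2 as merged.

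Peaks of the 4 lists of an antibody that overlapped by 1 bp were joined into sites over the whole genome, a step tested on simulated data. The simulated sites stood farther apart than the closest pairs of this locus, so the handling of such pairs was not tested. Python 3.11.15, numpy 2.4.6, scipy 1.17.1 and matplotlib 3.10.9 were used. Positions start at 1. Every peak in the window was kept. Sites in 3 or more lists, gained or lost sites and all RARα sites are named. The locus, its members and these rules were chosen with earlier results of these data known. The planned list of other estrogen-related receptor genes and coregulators was not run, because the annotation at hand is on another build.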

Additional observations from a re-analysis of the deposited data

How the results depend on the processing

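Of 98 recomputed values, 63 stayed the same and 35 moved. A count or spacing was the same if it stayed within 1.5 times the reported value, and a count of 0 only if it was unchanged. A median percentile was the same if it shifted by less than the SD of the percentiles at the locus. The overlap of 50% moved none. A gap of 1 kb left 0 lost MAML3 sites, by joining the lost site to its neighbour. With the 50% of peaks of highest score there were 0 gained and 0 lost MAML3 sites, 1 gained RARα site, 0 RARα sites in all lists, 5 RARα sites on MAML3 (5 of 5), and 10, 4, 2 and 0 peaks in MAML3 RA replicate 2, RARα RA replicate 2, RARα UT replicate 1 and RARα UT replicate 2. At equal list length (2222 and 251 peaks) there were 0 gained MAML3 sites, 3 RARα sites on MAML3 (3 of 3), 12 and 9 peaks in the MAML3 RA lists and 11 in UT replicate 2, and 1 and 3 peaks in the RARα RA lists and 1 in UT replicate 1. The MAML3 sites in all 4 lists numbered 9 at equal length. Equal length left MAML3 UT replicate 1 and RARα UT replicate 2 whole and cut the other lists. The gene body alone held 0 lost MAML3 sites, 6 MAML3 sites in all lists, 6 RARα sites on MAML3 (6 of 6), 7 and 11 peaks in the MAML3 UT lists, 4 in RARα RA replicate 2 and 2 in RARα UT replicate 1.

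Leaving out each replicate gave 1 to 5 gained, 1 to 2 lost and 10 to 14 constant MAML3 sites. Gained sites numbered 5 without UT replicate 2 and 5 without RA replicate 2, and 3 without RA replicate 1; lost sites numbered 2 without RA replicate 1. For RARα the ranges were 0 to 4 gained (4 without RA replicate 1, 1 without RA replicate 2, 1 without UT replicate 1), 0 to 2 lost (2 without UT replicate 2), 1 to 2 in all lists (2 without UT replicate 2) and 6 to 10 on MAML3 (6 without RA replicate 2). Joining the MAML3 UT lists into 1 library, chosen after the data were seen, gave 1 gained, 1 lost and 14 constant sites. No paired analysis was possible because the results come from no test. Read depth is not known, so no limit could be set from it.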
